A study of Mus musculus with 8 samples.

Results

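RREB1-knockout (KO) and wild-type (WT) NMuMG cells were compared while signalling through the TGFβ type I receptor was blocked by SB505124. The comparison uses 4 of the 8 RNA sequencing libraries of the study, 2 of each genotype, and every gene whose normalised count averaged at least 10 over the 8 libraries. That rule kept 12498 of the 18102 genes in the deposited table. All 8 libraries came from NMuMG, an epithelial line of the mouse mammary gland, and all cells were starved of serum for 6 h. The WT and KO cells compared here then received 2.5 µM SB505124 for 6 h. The other 4 libraries, again 2 of each genotype, received 100 pM TGFβ for 1.5 h and serve below to see which genotype differences were present under another treatment. They also enter the mean that chose the genes and the estimate of the spread. With the 4 SB505124 libraries alone in the fit, 7438 genes were called, against the 7117 given below. No library came from untreated cells. Every KO column carries the code KO1, taken here to mean 1 clone, so loss of Rreb1 and any other difference between that clone and the WT cells cannot be told apart. The labels do not say whether replicates were separate cultures, and the p-values reflect the variation among these libraries alone, which may be technical.

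TGFβ binds a pair of receptor kinases, and the type I kinase phosphorylates SMAD2 and SMAD3, which enter the nucleus with SMAD4 and switch genes on or off together with other factors. In NMuMG cells this leads to an epithelial-to-mesenchymal transition (EMT), in which cells lose junctions and gain migratory and matrix genes. RREB1 is a zinc finger protein that binds RAS-responsive elements in DNA and acts downstream of RAS and ERK signalling. With the receptor kinase inhibited, the genotypes are compared in cells whose TGFβ receptor signalling is kept low, including signalling by TGFβ that the cells make themselves.

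The 2 WT libraries held 26940914 and 27708227 reads and the 2 KO libraries 30133445 and 32143113. Levels below are normalised counts, that is reads divided by a library's size factor, and log2 fold changes are KO minus WT on log2(normalised count + 1) with the model's SE. A gene was called where the limma adjusted p was below 0.05. Keratins 8 and 18, which mark simple epithelium, were high in all 4 libraries, with 59380 and 64030 normalised counts of Krt8 in WT and 65150 and 74260 in KO. Neither Krt8 (0.17 ± 0.11, limma adjusted p = 0.177) nor Krt18 (-0.06 ± 0.11, limma adjusted p = 0.631) was called. Rreb1, on chromosome 13 at 37778382 to 37952005 of mm10, was read at 1055 and 1033 normalised counts in WT and at 1327 and 1343 in KO. It was therefore higher in the KO-labelled libraries, by 0.35 ± 0.08 (1.28-fold, limma adjusted p = 0.00153). The groups did not overlap, as in 78.8% of all tested genes. The position of the edit was not given in the sources used here, so the gene's total count does not check the knockout label.

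The genotypes differed at the majority of tested genes. Under SB505124, 7117 genes (56.9% of those tested) were called, 3655 higher in KO (29.2%) and 3462 lower (27.7%). For 9843 genes (78.8%) the 2 KO libraries lay wholly above or wholly below the 2 WT libraries. Most differences were small. The median absolute log2 difference was 0.331 between genotypes, against 0.0956 between the WT replicates and 0.119 between the KO replicates. At least 2-fold differences were called at 839 genes higher in KO (6.71%) and 1041 lower (8.33%). The largest ones lay on the lower side: 185 genes (1.48%) were called at least 16-fold lower and 63 (0.504%) at least 16-fold higher.

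**Figure D1:**
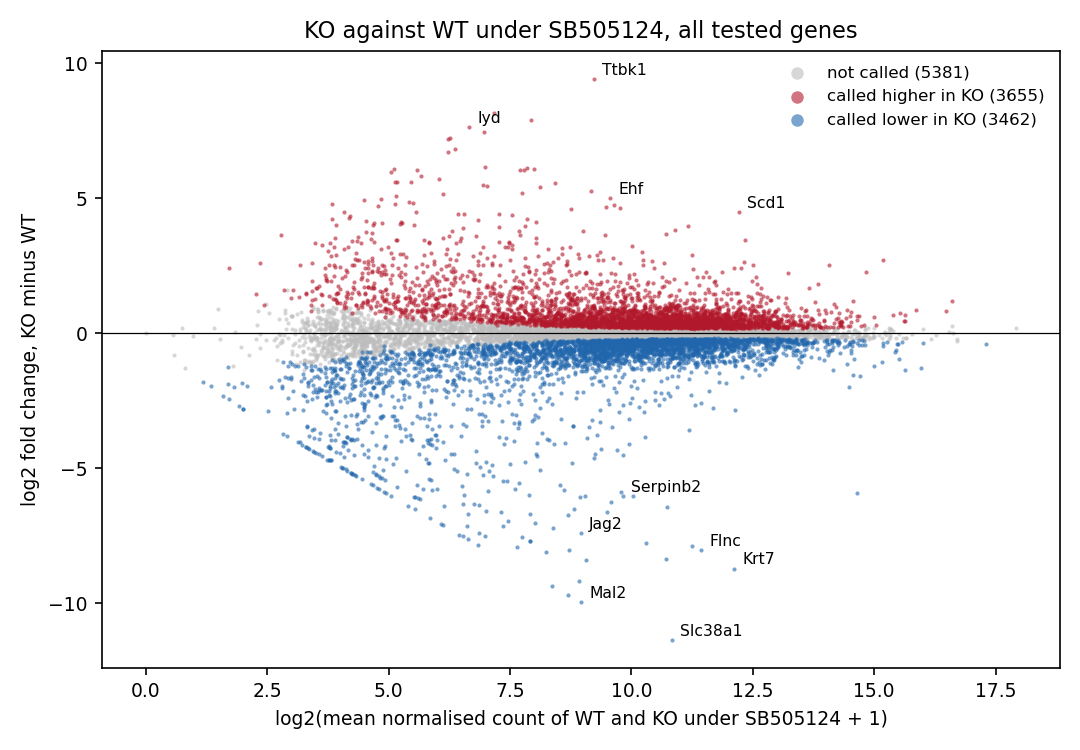
Log2 fold change, KO minus WT under SB505124 (vertical axis), against the log2 mean normalised count + 1 of the 2 groups (horizontal axis), 1 point a gene. Red points are the 3655 genes called higher in KO, blue the 3462 called lower and grey those not called, with Slc38a1 (-11.35) lowest and Ttbk1 (9.43) highest.

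A set of genes was read in 1 genotype and nearly or wholly unread in the other. In all, 17 had no reads in either KO library although their WT mean was at least 50: B3galt1, Dcp1b, Gde1, Gpc4, Gramd1a, Grem1, Irx2, Lmo1, Lrrk2, Mal2, Pcdh19, Ryr2, Slc35f2, Sult4a1, Tbx15, Thbd and Wfdc2. The reverse held for 6 genes: Cacng7, Ces1d, Gsdma, Iyd, Pcnxl2 and Tff3. In these bulk libraries, fewer cells that express a gene and less RNA per cell cannot be told apart. The promoters of Gde1, which had no KO reads, and of Ttbk1 and Iyd, which had at most 2 WT reads, are shown because these genes went from one extreme to the other. Each is the 250 bases before the RefSeq start (GRCm38.p6, the patched form of mm10), read 5′ to 3′ on the gene's strand, with CG dinucleotides, the sites that mammalian cells methylate, in capitals.
Gde1 (chr7:118705739-118705988, minus strand): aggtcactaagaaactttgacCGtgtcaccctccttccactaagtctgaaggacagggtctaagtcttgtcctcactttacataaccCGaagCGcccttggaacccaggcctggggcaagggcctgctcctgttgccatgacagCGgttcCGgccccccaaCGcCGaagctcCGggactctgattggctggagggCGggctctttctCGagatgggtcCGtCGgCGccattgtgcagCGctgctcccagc
Ttbk1 (chr17:46487676-46487925, minus strand): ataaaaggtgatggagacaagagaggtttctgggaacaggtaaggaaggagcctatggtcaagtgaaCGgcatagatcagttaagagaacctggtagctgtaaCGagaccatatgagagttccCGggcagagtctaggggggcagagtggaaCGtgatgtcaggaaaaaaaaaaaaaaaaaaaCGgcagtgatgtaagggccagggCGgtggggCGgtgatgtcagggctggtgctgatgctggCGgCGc
Iyd (chr10:3540024-3540273, plus strand): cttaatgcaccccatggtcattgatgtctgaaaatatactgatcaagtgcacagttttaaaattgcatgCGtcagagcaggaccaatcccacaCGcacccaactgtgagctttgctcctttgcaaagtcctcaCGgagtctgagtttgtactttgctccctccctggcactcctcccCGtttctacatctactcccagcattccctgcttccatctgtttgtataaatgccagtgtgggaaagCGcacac
The Gde1 stretch holds 14 CG, the Ttbk1 stretch 9 and that of Iyd 5. DNA methylation was not measured.

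Slc38a1, which encodes a sodium-coupled importer of glutamine and other neutral amino acids, fell furthest. It was read at 3849 and 3412 normalised counts in WT and at 0.9307 and 0 in KO, where it had 1 read in both libraries together. The ratio was 8100 with a 95% counting interval of 1450 to 320000 (log2 fold change -11.35 ± 0.36, limma adjusted p = 7e-15). Its neighbour on chromosome 15, Slc38a2, a related importer, was read at 12100 and 11060 in WT and 9556 and 8804 in KO and fell by only 0.33 ± 0.08 on the log2 scale (limma adjusted p = 0.00194). The near absence of Slc38a1 reads thus did not extend to the adjacent paralogue.

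Other large falls included a keratin, a membrane protein and an actin cross-linker. Krt7, a keratin of simple epithelium, was read at 8683 and 9067 in WT and at 16.75 and 24.18 in KO, a 420-fold fall (-8.71 ± 0.14, limma adjusted p = 4.5e-19). Mal2, a membrane protein of the transport route to the apical surface, had 972.1 and 1009 normalised counts in WT and none in KO, so it was at least 737-fold lower when 3 reads over the group are taken as the floor. Flnc, which encodes the actin cross-linker filamin C, went from 5734 and 5228 to 26.99 and 14.68 (261-fold). Krt7 and Flnc thus kept a low level in both KO libraries while Mal2 had none.

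Others of the 15 largest falls had varied roles. Serpinh1 encodes HSP47, the endoplasmic reticulum chaperone of collagen, and was read at 4912 and 4722 in WT and at 17.68 and 21.59 in KO (234-fold, -7.87 ± 0.16, limma adjusted p = 2.1e-17). Gde1, a glycerophosphodiester phosphodiesterase, had 849.4 and 801 in WT and none in KO (at least 614-fold lower). Slc35f2, a solute carrier, had 694.3 and 618.8 in WT and none in KO (at least 488-fold lower). Little spread was seen within a genotype in these 3 genes, and lack of overlap was a condition for being among the 15. Adcy1, an adenylyl cyclase, fell from 978.2 and 963.3 to 1.861 and 0, a ratio of 1080 (interval 300 to 8950). Micu2, a regulator of the mitochondrial calcium uniporter, fell 334-fold, Atp9a, a P4-type ATPase, 330-fold, Trim47, a RING-type ubiquitin ligase, 277-fold and Apobr, an apolipoprotein B receptor, 216-fold. Lmo1, a LIM-only transcriptional cofactor, had no KO reads and was at least 169-fold lower.

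On the higher side, 4 of the 15 largest rises were in genes best known from the nervous system. Ttbk1, a kinase of tau best known from neurons, was read at 0 and 2.003 in WT and at 1134 and 1263 in KO, a ratio of 1190 with an interval of 330 to 9850 (9.43 ± 0.33, limma adjusted p = 3e-14). Ctnna2, the alpha catenin of neurons, rose from 1.014 and 0 to 242 and 253.9 (ratio 493, interval 88.1 to 19500). Cacng7, an auxiliary subunit of glutamate receptors, had no WT reads and 125.6 and 171 in KO (at least 98.7-fold higher). Uchl1, a deubiquitinating enzyme abundant in neurons, rose 68.1-fold from 8.109 and 5.007 to 495.1 and 510.5. All 4 genes were at a few reads or none in WT.

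Metabolic enzymes were also among the 15 largest rises. The carboxylesterase Ces1d had no WT reads and 280.1 and 293.7 normalised counts in KO (at least 190-fold higher). Cyp2c70, a cytochrome P450 that acts on bile acids, rose 66.3-fold from 5.068 and 6.008 to 419.7 and 443.1. Iyd, which recovers iodide from iodotyrosines, had no WT reads and 197.3 and 202.1 in KO (at least 132-fold higher). In each of these 3 genes the KO libraries lay close to each other, and lack of overlap with WT was a condition of the ranking. Gsdma, a gasdermin of skin, was at least 100-fold higher and Tff3, a trefoil peptide of mucous epithelium, at least 44.5-fold higher. Satb1, a chromatin organiser, rose 69.8-fold and Lrrc15, a leucine-rich repeat membrane protein, had a ratio of 187 (interval 33.2 to 7410). The transcription cofactor Dach2 had a ratio of 321 (interval 57.3 to 12700) and Jakmip2, which binds microtubules, one of 482 (interval 133 to 3980).

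**Figure D2:**
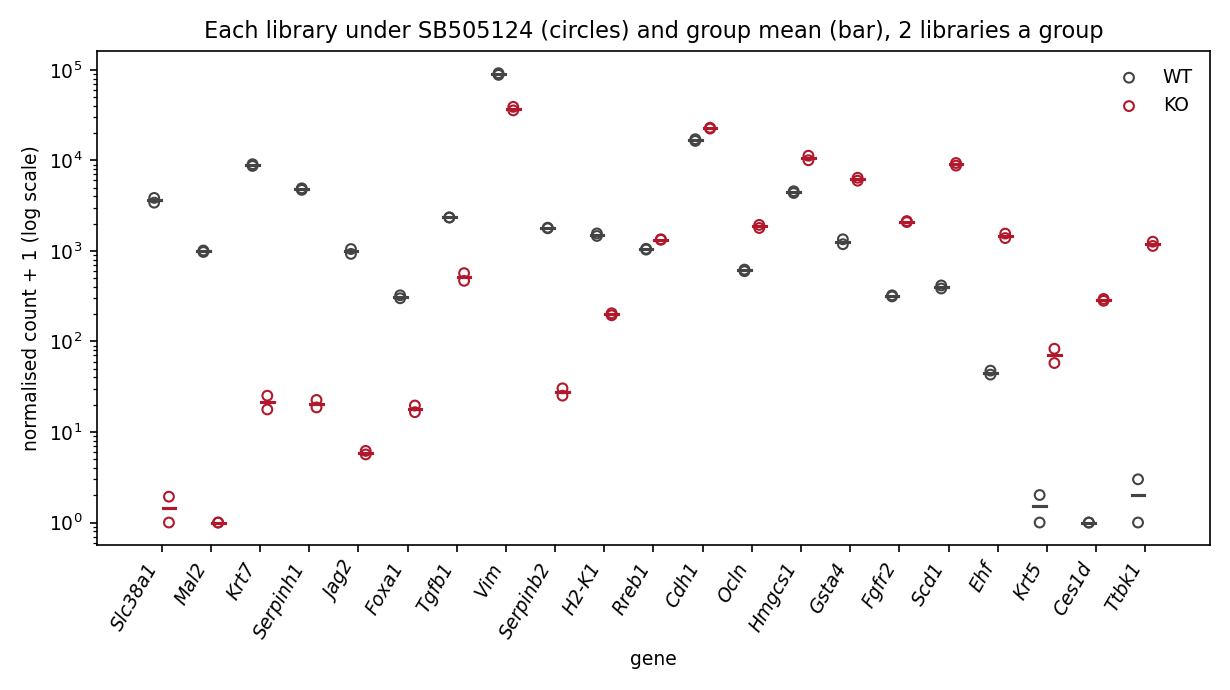
Normalised count + 1 on a log axis for 21 genes, with a circle for each of the 4 SB505124 libraries and a bar for the mean of a group (grey WT, red KO, 2 libraries each). The circles of a group lie close together beside the gap between genotypes, from Slc38a1 with 3849 and 3412 in WT against 0.9307 and 0 in KO to Ttbk1 with 0 and 2.003 against 1134 and 1263.

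Some of the genes with large differences lay next to or near each other. Evc and Evc2, 2 genes of primary cilia that stand head to head on chromosome 5, fell together: Evc from 667 and 649.8 to 1.861 and 6.046 (147-fold) and Evc2 from 246.3 and 214.3 to 0 and 0.8637 (ratio 514, interval 91.8 to 20300). Ces1g, which lies near Ces1d on chromosome 8 but not directly beside it, rose with it from 1.014 and 0 to 145.2 and 150.3 (ratio 293, interval 52.3 to 11600). Both pairs had non-overlapping groups, as had 78.8% of all tested genes. Cyp2c65, in the same cluster on chromosome 19 as Cyp2c70, rose 38.9-fold from 28.38 and 27.04 to 1139 and 1090. The carboxylesterases are similar in sequence, as are the cytochromes, so reads shared between copies could be assigned to either.

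The homeobox (HOX) genes, which set position along the body axis, had 8 tested members of 24. Hoxb3, Hoxb5, Hoxb6 and Hoxb13 passed the filter only through the KO libraries, so no count or median over them is set against other genes. The Hoxb genes tested lie in 1 cluster on chromosome 11. Hoxb6 was read at 1.014 and 1.001 in WT and at 64.22 and 71.69 in KO, a ratio of 67.6 (interval 18.4 to 563, 5.1 ± 0.35, limma adjusted p = 4.5e-10). Hoxb3 rose from 0 and 2.003 to 32.57 and 35.41 and Hoxb5 from 2.027 and 0 to 28.85 and 25.05. Hoxb13 rose 4.78-fold from 12.16 and 3.004 to 27.92 and 40.59. Hoxa4, in the Hoxa cluster on chromosome 6, went the other way, from 19.26 and 15.02 to 1.861 and 0. The TruSeq v2 kit does not mark strand, so reads of overlapping antisense transcripts in these clusters are not separated. Among 14 tested imprinted genes, which are expressed from 1 parental copy, 4 were higher and 2 lower (median 0.26). Peg3, a paternally expressed zinc finger gene, rose from 1788 and 1651 to 10480 and 9346 (5.76-fold, 2.53 ± 0.1, limma adjusted p = 1.6e-13), and Usp29, which shares its promoter region, rose from 26.35 and 24.03 to 109.8 and 114.9 (4.33-fold). Phlda2, maternally expressed, fell from 120.6 and 106.1 to 0.9307 and 2.591 (43.4-fold).

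Genes on chromosomes 4 and 14 were mostly lower in KO. On chromosome 4, 80.2% of the 753 tested genes were called lower and 4.91% higher, and the median log2 fold change was -0.69, a ratio of 0.621. On chromosome 14, 74.4% of 402 genes were called lower and 7.21% higher, with a median of -0.62 (ratio 0.651). The medians of the other 17 autosomes and X lay between -0.05 and 0.25. The highest was that of chromosome 18, with 48.4% of 322 genes called higher and 14.6% lower. In runs of 30 neighbouring tested genes, the median was at or below -0.4 in 25 of 25 runs on chromosome 4 (-0.97 to -0.41) and in 13 of 13 on chromosome 14 (-0.79 to -0.52), but in 0 of 367 runs elsewhere (-0.38 to 0.6). The shift thus ran along the whole of both chromosomes and appeared again in the TGFβ libraries, with medians of -0.68 and -0.58. DNA copy number was not measured in this study. Together the 2 chromosomes held 903 of the 3462 genes called lower and 66 of the 3655 called higher. Among the 11343 genes elsewhere, 3589 (31.6%) were higher and 2559 (22.6%) lower, with a median of 0.05. A fall on chromosome 4 or 14 is therefore named as such below, and values outside those chromosomes are given for some of the lists. Single genes departed from it: Nid2, a basement membrane glycoprotein on chromosome 14, rose 4.84-fold from 183.5 and 182.2 to 860.9 and 917.3, and Trp53inp1, a p53 target on chromosome 4, rose 2.33-fold.

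**Figure D3:**
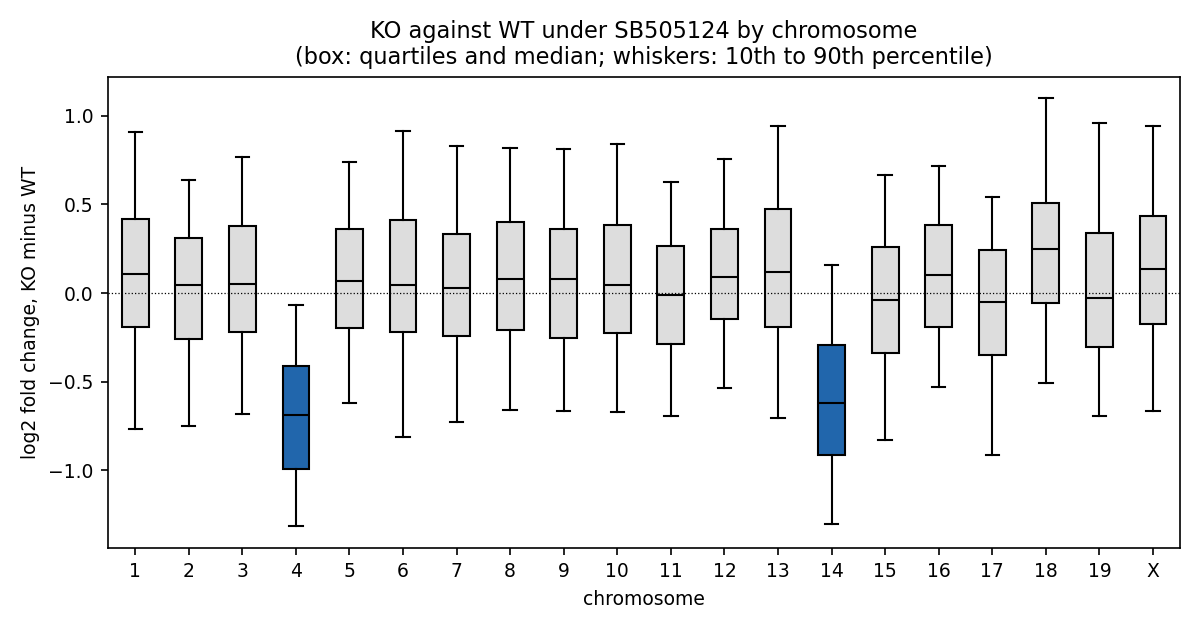
Log2 fold change, KO minus WT under SB505124 (vertical axis), of the tested genes on each chromosome (horizontal axis), with boxes for quartiles and median and whiskers from the 10th to the 90th percentile. The blue boxes of chromosomes 4 and 14 have medians of -0.69 and -0.62, and those of the other chromosomes lie between -0.05 and 0.25.

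The list counts below cover the members that passed the filter on the mean, and a gene can pass through the genotype in which it is high, so they describe those members only. The genes of the TGFβ pathway itself did not move one way. Of 23 ligands, receptors and SMADs, 5 were called higher and 9 lower (median -0.21, against 29.2% higher, 27.7% lower and a median of 0.01 over all tested genes). All 5 TGFβ and activin ligand genes of the list (Tgfb1, Tgfb2, Tgfb3, Inhba and Inhbb) were lower, and both BMP ligands (Bmp4 and Bmp7, 0.41 and 0.75) were higher. Of these 7 calls, that of Tgfb3 was lost when any of the 4 SB505124 libraries was left out, with the replicate block and with DESeq2, and that of Bmp4 without either WT library or KO replicate 2 (highest adjusted p = 0.193 and 0.0924 over all limma and DESeq2 alternatives). Inhbb, an activin subunit, fell from 1271 and 1263 to 53.05 and 76.87 (19.5-fold, -4.29 ± 0.17, limma adjusted p = 1.2e-13). Tgfb1, the main TGFβ ligand, fell 4.54-fold from 2333 and 2347 to 466.3 and 567.5. Ltbp1, which stores latent TGFβ in the matrix, fell 2.98-fold from 3057 and 2881 to 963.3 and 1028. In all 3 genes the lowest WT library was well above the highest KO library, and groups did not overlap in 78.8% of all tested genes. Receptors and SMADs went both ways. The activin type I receptor Acvr1b fell 2.01-fold from 593 and 598.8 to 302.5 and 290.2. Tgfbr1, which encodes a type I receptor kinase that SB505124 inhibits, was read at 2224 and 2097 in WT and 1998 and 1843 in KO. It was not called (limma adjusted p = 0.0833), although it lies on chromosome 4. Smad3 was not called either (-0.15 ± 0.08, limma adjusted p = 0.117), whereas Smad2 (0.45 ± 0.09, limma adjusted p = 0.00024) and Smad4 (0.33 ± 0.08, limma adjusted p = 0.00143) were higher. Smad2 and Smad4 both lie on chromosome 18, where the median over all tested genes was 0.25. Bmpr1a, a BMP receptor on chromosome 14, fell 1.57-fold.

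Of 14 SMAD feedback genes and co-repressors, 2 were higher and 7 lower (median -0.31, and 5 of 12 lower with a median of -0.17 outside chromosomes 4 and 14). Klf10, an early TGFβ-induced repressor, fell from 2496 and 2343 to 690.6 and 730.7 (3.4-fold, -1.77 ± 0.08, limma adjusted p = 7.7e-13). Ldlrad4, which sequesters SMADs, fell from 118.6 and 96.13 to 1.861 and 4.319 (27.6-fold). Spsb1, an ubiquitin ligase adaptor that limits the type II receptor, fell 3.63-fold, and Ski, a SMAD co-repressor, 1.77-fold, both on chromosome 4. Smad7, the inhibitory SMAD, was read at 708.5 and 632.8 in WT and 601.2 and 607.2 in KO and was not called (limma adjusted p = 0.141). Of 7 ID and BMP target genes, 2 were higher and 4 lower (median -0.76, and -0.58 over the 6 outside chromosomes 4 and 14). Id2, an inhibitor of basic helix-loop-helix factors, rose 1.71-fold from 11950 and 12190 to 20780 and 20530, while Id3, on chromosome 4, fell 2.17-fold from 629.5 and 611.8 to 228 and 358.4. The KO libraries spread more for Id3 than for Id2. Grem1, a secreted BMP antagonist, had 60.82 and 68.09 in WT and no KO reads (at least 48-fold lower).

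EMT transcription factors were split evenly, with 5 of 12 higher and 5 lower (median -0.01). Hmga2, a chromatin protein induced by TGFβ, fell from 9149 and 9080 to 4290 and 3993 (2.2-fold, -1.14 ± 0.08, limma adjusted p = 4.8e-10). Sox4 rose 2.04-fold from 1139 and 1234 to 2436 and 2392, Snai3 3.44-fold and Foxq1 2.18-fold. Snai1, the SNAIL repressor of E-cadherin, was low with the receptor inhibited and lower still in KO, at 24.33 and 19.02 in WT and 1.861 and 3.455 in KO (6.31-fold, -2.66 ± 0.33, limma adjusted p = 1.4e-06). The groups of these 5 genes did not overlap, as in 78.8% of all tested genes.

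Among 9 epithelial identity factors, 3 were higher and 2 lower, with a median of 0.04 that turned to between -0.01 and 0.01 under 3 other scalings of the libraries. Ehf, an epithelial ETS factor, rose 32.4-fold from 46.63 and 42.05 to 1553 and 1385 (5.02 ± 0.12, limma adjusted p = 1.3e-16), and the intestinal homeobox factor Cdx2 rose 3.91-fold from 155.1 and 171.2 to 601.2 and 679.7. Foxa1, a factor of luminal mammary cells, fell 17.3-fold from 299 and 322.4 to 18.61 and 15.55. Klf4, on chromosome 4, fell 3.88-fold. The factors with the largest differences thus went both ways.

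Junction genes were mostly higher. Of 21 epithelial adhesion and junction genes, 12 were higher and 3 lower (median 0.26). Ocln, the tight junction protein occludin, rose 3.06-fold from 596 and 620.8 to 1938 and 1791 (1.61 ± 0.09, limma adjusted p = 3e-11). Dsp, the desmosomal plaque protein desmoplakin, rose 1.94-fold from 7773 and 7906 to 15860 and 14630. Cdh1, which encodes E-cadherin, rose from 17130 and 16400 to 22440 and 22940 (0.44 ± 0.09, limma adjusted p = 0.00036). Of the desmosomal plakophilins, Pkp3 fell 9.5-fold from 201.7 and 233.3 to 24.2 and 19.87 and Pkp1 11.5-fold, while Pkp2 was called higher (0.26, not called without replicate 1 of WT or of KO). Of 9 keratins, 3 were higher and 4 lower (median -0.06). Beside Krt7, Krt6a of stressed epidermis fell from 39.53 and 29.04 to 1.861 and 0.8637 (ratio 25.5, interval 8.36 to 127). Krt5, a basal keratin, rose from 1.014 and 0 to 56.77 and 82.05 (ratio 139, interval 24.5 to 5510), and Krt20 rose 1.49-fold.

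Mesenchymal and matrix genes were mostly lower. Of 10 mesenchymal markers, 1 was higher and 7 lower (median -0.82). Vim, the intermediate filament vimentin, fell 2.41-fold from 88000 and 91790 to 35660 and 39020 (-1.27 ± 0.1, limma adjusted p = 3e-09). Itga5, the fibronectin receptor subunit, fell 5.64-fold from 2214 and 1982 to 365.8 and 375.7, and the hyaluronan receptor Cd44 fell 1.87-fold. The 1 marker that rose was Cdh2, N-cadherin, from 7235 and 7190 to 12080 and 11340 (0.7 ± 0.08, limma adjusted p = 1.1e-06). Of 24 collagens, laminins and matrix glycoproteins, 2 were higher and 14 lower (median -0.63). Col6a1 fell 27.2-fold from 252.4 and 237.3 to 9.307 and 6.91, Col5a1 15.1-fold and the basement membrane linker Nid1 10.7-fold, while its paralogue Nid2 rose as described. Both junction and mesenchymal lists thus had exceptions, Pkp1 and Pkp3 among those of the first and Cdh2 in the second. Both classical cadherins were higher together.

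Among the 34 pathway lists, those of proteases and their inhibitors held the lowest medians. Of 12 genes of the plasminogen system and serpins, 11 were lower and none higher (median -1.67, and -0.95 over the 11 outside chromosomes 4 and 14). Plau, the urokinase-type plasminogen activator, on chromosome 14, fell 10.9-fold from 1438 and 1386 to 123.8 and 133 (-3.45 ± 0.1, limma adjusted p = 2.5e-15). Serpinb2, an inhibitor of urokinase, fell 64.8-fold from 1777 and 1805 to 24.2 and 29.37, and Serpine2, protease nexin 1, 18.8-fold from 129.7 and 107.1 to 2.792 and 9.501. The activator and its inhibitors were thus lower in the same libraries. Serpinb9b, a granzyme inhibitor family member with near copies, fell 7.09-fold. Of 16 metalloproteases, TIMPs and lysyl oxidases, 2 were higher and 11 lower (median -1.1, and -1.22 outside chromosomes 4 and 14). The lysyl oxidase Loxl4, which cross-links collagen, fell 6.24-fold from 4452 and 4287 to 680.3 and 718.6, Adam12 4.49-fold, Mmp11 3.68-fold and the membrane-type protease Mmp14, on chromosome 14, 2.01-fold from 8034 and 7517 to 3683 and 4063. Of 22 integrins and focal adhesion genes, 6 were higher and 9 lower (median -0.09, and -0.02 outside chromosomes 4 and 14). Itga3, a laminin receptor subunit, fell 3.01-fold and Vcl, on chromosome 14, 2.06-fold, while Itga1, a collagen receptor subunit, rose 7.38-fold from 140.9 and 124.2 to 988.4 and 976.

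Growth factor signalling genes were split. Of 22 EGF family ligands and receptor tyrosine kinases, 8 were higher and 8 lower (median -0.02). Fgfr2 rose 6.62-fold from 313.2 and 322.4 to 2135 and 2082 (2.73 ± 0.1, limma adjusted p = 2.4e-14), and the ligand Nrg1 1.86-fold. Mst1r, the receptor of macrophage-stimulating protein, fell 9.29-fold from 1144 and 967.3 to 93.07 and 135.6, and the EGF receptor ligand Areg 2.21-fold. Receptors with called differences therefore went both ways. Of 24 AP-1 and immediate early genes, 4 were higher and 11 lower (median -0.26). Jun, on chromosome 4, fell 3.27-fold from 1857 and 1843 to 534.2 and 598.6, Fosb 3.49-fold from 530.1 and 386.5 to 132.2 and 126.1, Ier3 2.17-fold and Maff 1.94-fold. Of 19 ERK pathway feedback genes, 4 were higher and 5 lower (median 0.07, and 3 lower with a median of 0.11 outside chromosomes 4 and 14). Those that fell include Epha2 on chromosome 4 (2.92-fold), Dusp5, an ERK phosphatase, from 1196 and 1198 to 618.9 and 628.8 (1.92-fold), Dusp7 (1.69-fold) and Spry2 on chromosome 14 (1.76-fold).

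Other developmental pathways showed single large differences. Of 9 NOTCH receptors, ligands and targets, 4 were higher and 3 lower (median 0.25). The ligand Jag2 fell 167-fold from 1048 and 926.2 to 4.653 and 5.182 (-7.38 ± 0.22, limma adjusted p = 1.9e-15) and Nrarp, a feedback target, had 41.56 and 35.05 in WT and no KO reads (at least 28.5-fold lower). The receptor Notch1 rose 4.06-fold from 816 and 675.9 to 2907 and 3132, and the target Hey1 3.23-fold from 105.4 and 94.12 to 325.7 and 321.3. Another ligand, Jag1, was called higher (0.25), but not without WT replicate 2, KO replicate 1 or the variance trend. Of 13 WNT ligands and targets, 4 were higher and 3 lower (median 0.07). Wnt7a fell 7.57-fold from 2246 and 2087 to 265.2 and 306.6, whereas Wnt7b rose 1.68-fold and the receptor Lgr4 1.9-fold. Of 16 YAP and TEAD targets, 8 were higher and 6 lower (median 0.15, and 4 lower outside chromosomes 4 and 14), among them Ajuba, on chromosome 14, lower 1.86-fold and Myof higher 1.6-fold.

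Sterol, lipid and redox lists had higher medians than the other pathway lists, HOX genes left aside. Of 21 cholesterol synthesis genes, 17 were higher and 1 lower (median 0.55). Hmgcs1, an early enzyme of the pathway, rose 2.38-fold from 4360 and 4559 to 11260 and 10030 (1.25 ± 0.08, limma adjusted p = 2.9e-10), the demethylase Cyp51 1.89-fold from 5960 and 5602 to 10940 and 10860, and the sterol carrier Stard4 2.78-fold. Of 19 fatty acid and lipid storage genes, 9 were higher and 4 lower (median 0.44). Scd1, the desaturase that makes oleic acid, rose 22.6-fold from 414.6 and 383.5 to 9352 and 8751 (4.5 ± 0.1, limma adjusted p = 3.5e-17). Acsl1, Lpin1 and Cpt1a, of fatty acid activation, storage and mitochondrial import, rose 2.02-fold, 2.49-fold and 1.79-fold. Of 18 NRF2 and glutathione genes, 12 were higher and 4 lower (median 0.78). The transferases Gsta4 and Gstm1 rose 4.9-fold and 5.12-fold, the first from 1185 and 1343 to 6426 and 5963. Gclc, the rate-limiting enzyme of glutathione synthesis, rose 2.43-fold and the haem oxygenase Hmox1 2.86-fold, from 1233 and 1363 to 3706 and 3708. Transferases have near copies, so their reads could be shared.

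Of 22 integrated stress response genes, which the factor ATF4 drives under amino acid shortage, 15 were lower and 3 higher (median -0.56). Trib3 fell 5.31-fold from 787.6 and 782 to 141.5 and 152.9 (-2.41 ± 0.11, limma adjusted p = 6e-13), Chac1 4.52-fold from 807.9 and 869.1 to 173.1 and 196.9, Nupr1 4.9-fold and the serine pathway enzyme Shmt2 1.89-fold. Their KO levels lay below WT in both libraries, and groups did not overlap in 78.8% of all tested genes. Of 18 endoplasmic reticulum chaperone and unfolded protein response genes, 9 were lower and 1 higher (median -0.21, and -0.14 outside chromosomes 4 and 14), with Creld2 1.63-fold lower and Dnajb9 1.42-fold higher. Of 14 heat shock chaperones, 4 were lower and 2 higher (median -0.09, and -0.01 outside chromosomes 4 and 14), so the share lower was near the 27.7% of all genes. The small heat shock protein Cryab fell 5.92-fold from 1605 and 1850 to 283.9 and 297.1. Of 22 glycolysis and hypoxia genes, 4 were higher and 6 lower, and their median of 0.02 turned to between -0.03 and -0.01 under other scalings. Vegfa fell 3.51-fold from 5926 and 5274 to 1543 and 1646, while the phosphofructokinase Pfkp rose 3.15-fold.

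Immune genes of these epithelial cells moved in both directions. Of 23 interferon response and antigen presentation genes, 13 were lower and 1 higher (median -0.73, and -0.6 over the 20 outside chromosomes 4 and 14). The class I antigen-presenting genes H2-K1 and H2-D1 fell 7.57-fold and 2.4-fold, H2-K1 from 1559 and 1462 to 193.6 and 203.8 (-2.92 ± 0.1, limma adjusted p = 1.1e-14). The peptide transporter Tap2 fell 3.71-fold, and B2m, the shared light chain, was not called (limma adjusted p = 0.719). The class I heavy chains are near copies of each other, so their counts are uncertain. Of 23 NF-kB, chemokine and cytokine genes, 9 were higher and 10 lower (median 0.01, and -0.04 to -0.02 under other scalings). Cxcl16 fell 56-fold from 794.7 and 733 to 10.24 and 15.55 and Lif 2.31-fold, whereas Ccl20 rose 2.64-fold from 3741 and 3600 to 9625 and 9719 and Il33 2.76-fold. Of 9 complement and acute phase genes, 4 were higher and 3 lower (median 0.14), with Cfb, Cp and C1s1 higher 2.34-fold, 2.39-fold and 5.5-fold.

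Most proliferation genes were not called. Of 25 cell cycle genes, 3 were higher and 7 lower and 15 were not called (median -0.05, and -0.01 outside chromosomes 4 and 14). E2f2 and Cdc20 fell 2.46-fold and 1.64-fold, both on chromosome 4, and the mitotic kinase Bub1 rose 1.53-fold from 3210 and 3389 to 5197 and 4877. Of 24 CDK inhibitors and p53 targets, 12 were higher and 8 lower (median 0.15, and 11 higher and 4 lower outside chromosomes 4 and 14). Among those with the smallest p, Perp was 1.94-fold lower, Cdkn2a, on chromosome 4, 2.71-fold lower and Trp53inp1 2.33-fold higher. Of 79 cytosolic ribosomal protein genes, 45 were lower and none higher (median -0.26). The 7 on chromosomes 4 and 14 were all lower, with a median of -0.99, and Rpl22 fell from 7541 and 7748 to 3252 and 3051 (2.43-fold). Elsewhere 38 of 72 were lower with a median of -0.26, so the shift of the list was also present off those chromosomes. Of 75 nuclear genes of the mitochondrial respiratory chain, 13 were higher and 7 lower (median 0.06), with Ndufv3 1.5-fold higher and Ndufb6, on chromosome 4, 1.53-fold lower.

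**Figure D4:**
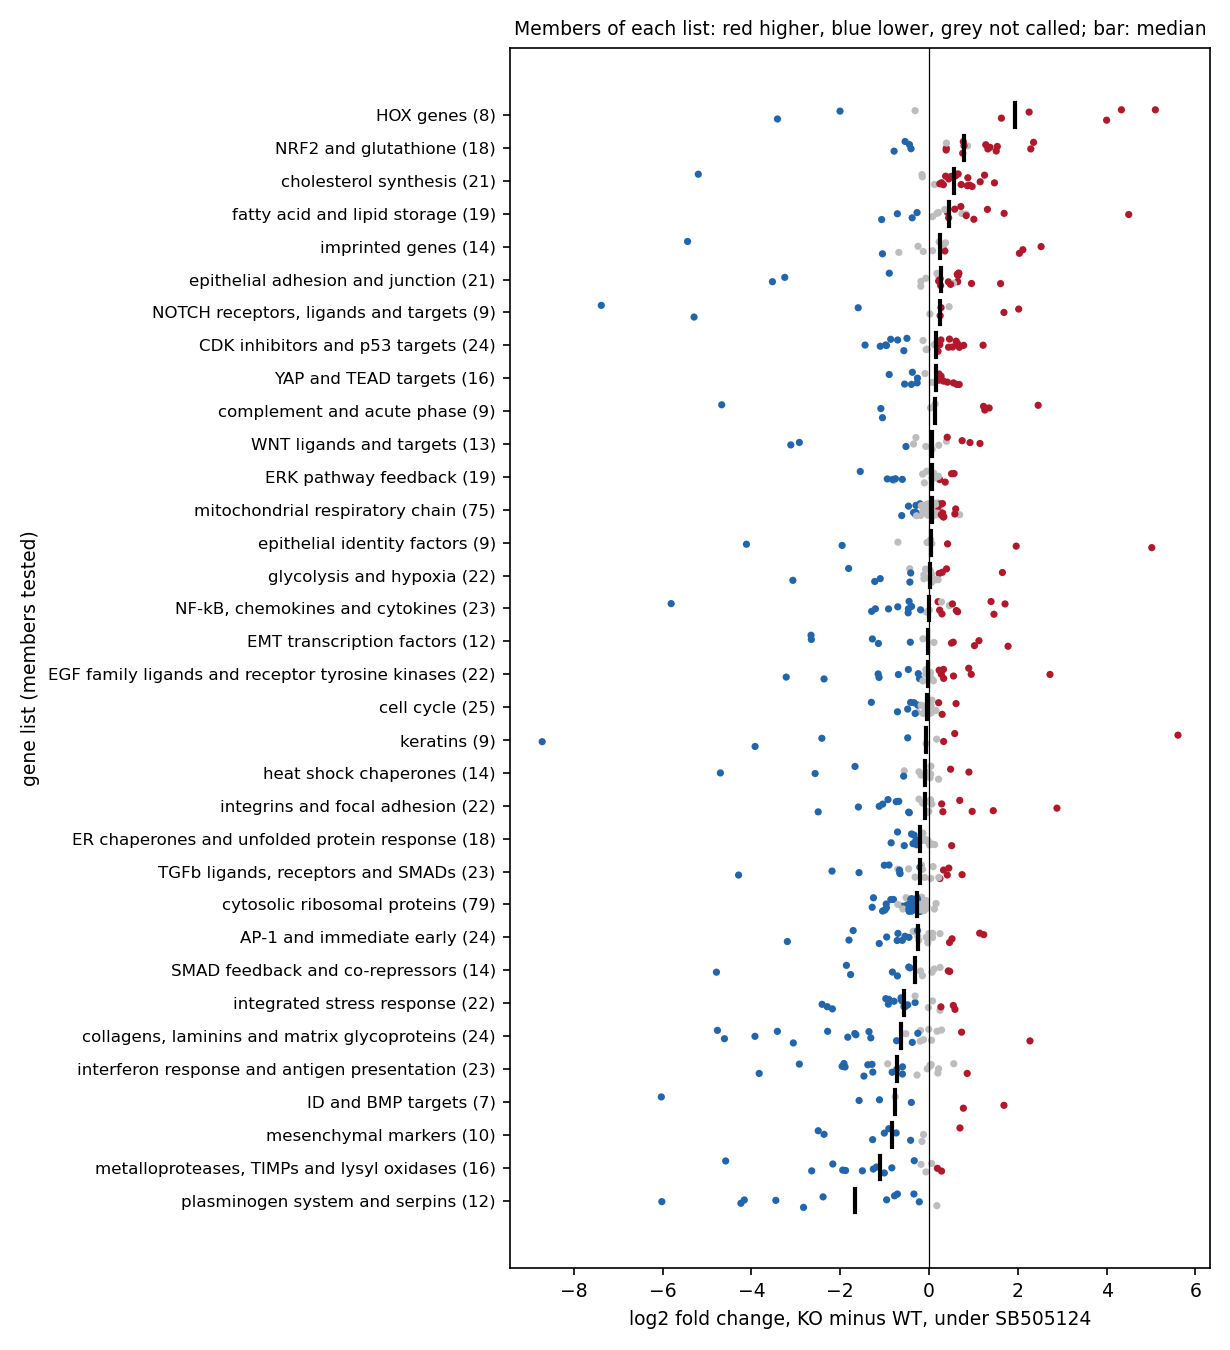
Log2 fold change, KO minus WT under SB505124 (horizontal axis), of every tested member of 34 gene lists (rows, with the number of members), coloured red where called higher, blue where called lower and grey where not called, with a black bar at the list's median. Medians run from -1.67 for the plasminogen system and serpins to 0.78 for NRF2 and glutathione, leaving aside the HOX genes, of which several passed the filter only through KO.

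Markers of other cell types were mostly few or faint in these libraries. The summed level of the 14 luminal markers in the table was 159200 to 169100 in WT and 171700 to 186000 in KO, carried by Krt8, Krt18 and Krt19. Of the 7 tested, Cd14 (2.83-fold) and Krt19 (1.26-fold, not called without KO replicate 2) were higher and Foxa1 (17.3-fold) lower. Of 9 basal markers, 3 were tested. Mylk and Krt5 were higher and Krt14 lower (not called without WT replicate 1 or with a pseudocount of 8, highest limma adjusted p = 0.0616 over the alternatives), and their sum was 806.1 to 810.9 in WT and 2335 to 2341 in KO, nearly all of it Mylk, at 789.6 and 779 against 2272 and 2242. The defining basal factor Trp63 was read at 5.068 and 2.003 in WT and at 2.792 and 0.8637 in KO. Of 8 fibroblast markers, 3 were tested, none was higher and 2 were lower, and the sum was 163.2 to 165.2 in WT and 45.6 to 60.46 in KO. Dcn, a matrix proteoglycan, fell from 86.16 and 94.12 to 0 and 0.8637 (interval of the ratio 35.7 to 7990), and Lum and Thy1 were at 0 in all 4 libraries. Of 9 leukocyte markers, 3 were tested and 1 was lower, with a sum of 384.5 to 417.6 in WT and 414.6 to 493.3 in KO. Of 6 endothelial markers, 1 was tested and it was lower, and neither of the 2 tested adipocyte markers was called. The part of other cells in the differences above was not tested.

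The same genotypes were also sequenced after TGFβ, in libraries that share none with those compared here but come from the same lines. Under TGFβ 7865 genes (62.9%) were called, 4087 higher (32.7%) and 3778 lower (30.2%). Of the genes called under SB505124, 3154 of 3655 higher ones (86.3%, and 77.2% of those higher under TGFβ) and 2900 of 3462 lower ones (83.8%, and 76.8%) were called in the same direction, and 28 in the opposite one. Of 756 genes called and at least 4-fold different under SB505124, 750 were called the same way under TGFβ. Across the 12498 genes, which are not independent replicates, the 2 sets of log2 fold changes had a Pearson r of 0.948. A test of the difference between the 2 genotype effects called 352 genes (2.82%), 71 with the higher effect under SB505124 (0.568%) and 281 with the lower (2.25%), and 2102 had an unadjusted p below 0.05. Only 38 of the 756 genes with differences of at least 4-fold were among them. Leaving out 1 library at a time moved the count of 352 to between 141 (without WT SB505124 replicate 1) and 1027 (without WT TGFβ replicate 1).

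Among the genes whose difference depended on treatment, named after their values were seen, Snai1 stood at 24.33 and 19.02 in WT and 1.861 and 3.455 in KO under SB505124. Under TGFβ it stood at a mean of 881 ± 77.4 (SD, n = 2) in WT and 13.05 ± 6.2 in KO. Its log2 difference was -2.66 under SB505124 and -6.04 under TGFβ (difference 3.39 ± 0.47, limma adjusted p = 0.00031). Nedd9, a focal adhesion scaffold, was higher in KO under SB505124, at 220 and 262.3 in WT and 741.8 and 582.1 in KO, and lower under TGFβ, where the means were 1044 in WT and 661.3 in KO (difference 2.11 ± 0.18, limma adjusted p = 1.8e-06). Its KO level was nearly equal under both treatments. Gpr56, an adhesion receptor, rose 3-fold under SB505124, from 421.7 and 421.6 to 1219 and 1319, and was not called under TGFβ (difference 1.46 ± 0.14, limma adjusted p = 5.4e-06). Angptl4, an inhibitor of lipoprotein lipase, was 1.2-fold lower under SB505124 and 4.07-fold lower under TGFβ (difference 1.76 ± 0.15, limma adjusted p = 2.3e-06). The small fall of Angptl4 under SB505124 was not called without either WT library or KO replicate 1, with the replicate block or without the variance trend (highest limma adjusted p = 0.322 over the alternatives).

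In the other direction, Fat2, an atypical cadherin, was read at 581.8 and 562.7 in WT and 41.88 and 32.82 in KO, a 15.1-fold fall that was 2.68-fold under TGFβ (difference -2.49 ± 0.19, limma adjusted p = 9e-07). Dlx3, a homeobox factor of skin, fell from 100.3 and 103.1 to 0.9307 and 0.8637, a ratio of 114 (interval 31 to 944), against 14.5-fold under TGFβ (difference -1.9 ± 0.39, limma adjusted p = 0.00876). Gde1, with no KO reads under SB505124, had a mean of 9.489 ± 2.53 in KO under TGFβ (difference -2.8 ± 0.31, limma adjusted p = 4.7e-05). Both genes stayed far below WT under both treatments. Bmp8a, a BMP ligand on chromosome 4, was not called under SB505124, at 26.35 and 21.03 in WT and 30.71 and 29.37 in KO, and was 5.99-fold higher in KO under TGFβ (difference -2.24 ± 0.39, limma adjusted p = 0.00235). Under TGFβ, 74 of 79 ribosomal genes were called lower (median -0.54) and 29 of 75 respiratory chain genes. The test of the difference between treatments called 2 ribosomal and 6 respiratory chain genes, against 2.82% of all genes.

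**Figure D5:**
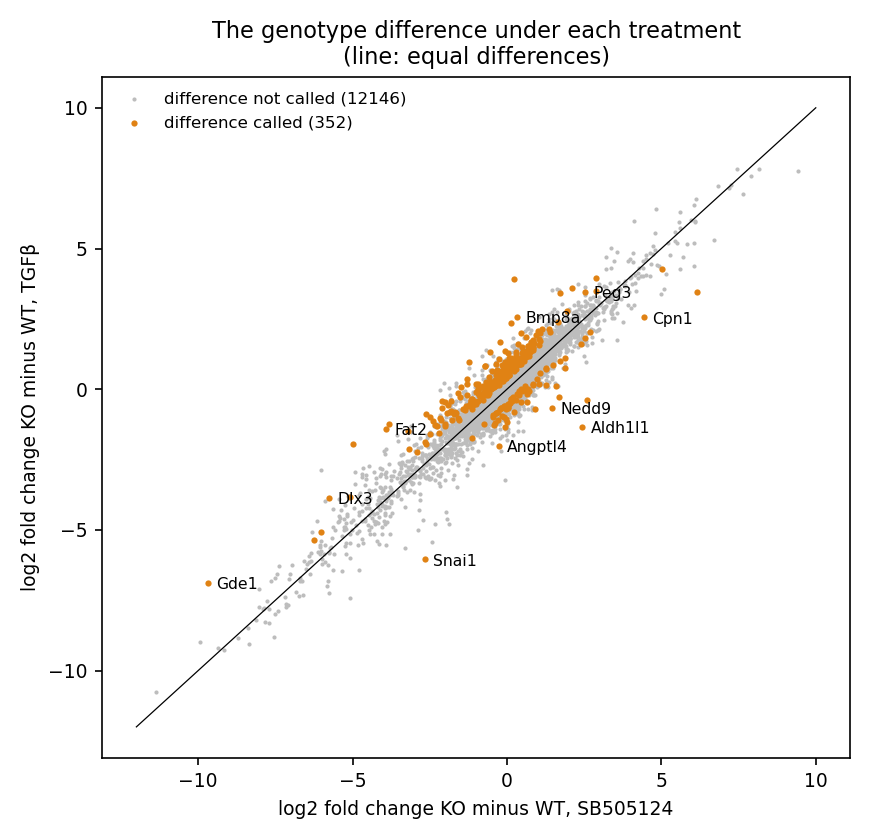
Log2 fold change, KO minus WT, under SB505124 (horizontal axis) and under TGFβ (vertical axis), 1 point a gene, with a line where both are equal. Orange points are the 352 genes whose difference between treatments was called, and most genes lie along the line, with Snai1 (-2.66 and -6.04) and Gde1 (-9.69 and -6.89) among those away from it.

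Promoter sequence was described for the 9922 of 12498 tested genes with a RefSeq promoter, over 250 bases before and 50 after the start. The letters ACCACCC, part of the RAS-responsive element bound by RREB1, were searched on both strands and occurred in 4.79% of these promoters. They occurred in 4.96% of promoters of genes called higher, 4.51% of those called lower and 4.85% of those not called, so the 3 shares differed by less than 1 percentage point. The AP-1 letters TGANTCA, searched on both strands, occurred in 5.15% of all promoters, 5.45% of those higher, 5.98% of those lower and 4.43% of those not called. It occurred in 13.6% of the 44 promoters of genes at least 16-fold higher, 10% of the 140 of genes at least 16-fold lower and 11.6% of 190 others whose genes had a WT mean below 10. In the same 3 groups, ACCACCC occurred in 6.82% of the promoters at least 16-fold higher, 3.57% of those at least 16-fold lower and 7.89% of the 190 others. Among the largest rises and falls that have a promoter entry, only Serpinh1 held ACCACCC, and this 1 match is not read as a result. A match is a description of the letters and not a binding site. The median number of CG was 21 in all promoters and also in those called higher and called lower. The 44 promoters of genes at least 16-fold higher, such as Ces1g with 2 CG and Cyp2c70 with 4, had a median of 8, and the 140 of genes at least 16-fold lower, such as Gde1 with 22, had a median of 19. The 190 other promoters of tested genes with a WT mean below 10, some of which were also called higher, had a median of 9.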

How the data were processed

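RNA libraries of 8 samples were made with the TruSeq RNA v2 kit, per the labels. The authors deposited 1 signal value per gene and library, a normalised count, that is a read count divided by a size factor. The submitters' processing notes name DESeq2 3.4, HTSeq 0.6.1p1, FastQC 0.11.5 and the build mm10, without roles, and the aligner is not given in the sources used here. Dividing each library by its smallest step gave whole reads for 100% of the values (tolerance 0.01 reads), and these were used for the totals, the bounds and the count tests. Totals were 25144204 to 32143113 reads. The 26 symbols turned into dates and 4 rows with a shared name were kept but not named.

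Values were transformed as log2(value + 1), which understates the fold change of genes with few reads. Genes with a mean of at least 10 over the 8 libraries were fitted with limma 3.58.1 (R 4.3.3), with a variance trend and 4 group means, over all 8 libraries (4 residual degrees of freedom, to which the prior added 14.3). Benjamini-Hochberg adjustment ran over the 12498 genes of a contrast, and 0.05 was the threshold. The procedure was tested on simulated data in which only a small part of the genes changed. That test therefore does not cover data in which most genes differ, as here. Folds are 2 to the power of the model's log2 fold change, except that a group with no reads gives a bound with 3 reads over the group and a group with 1 to 3 reads gives the ratio of normalised reads with an exact 95% interval. Bounds and intervals cover counting error only. Levels are given per library or as mean ± SD.

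The 15 largest rises and 15 largest falls (groups not overlapping, mean of at least 50 in whichever group was higher, no predicted genes), up to 4 members of each of 34 pathway and 6 cell type lists by smallest p, and Rreb1 were named by rule. Some of these are not reported here, and genes without reads in a genotype, core TGFβ pathway genes, cadherins and genes with different effects between treatments were named after their values were seen. The members and lists were chosen with earlier results of these data known. Positions and promoters come from RefSeq (GRCm38.p6), and 99.5% of the genes had a position. Alternatives included edgeR 4.0.16 and DESeq2 1.42.0 on recovered reads. Those that leave out chromosomes 4 and 14 were chosen after seeing the data.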

Additional observations from a re-analysis of the deposited data

Results flagged for a closer look

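For 33 of the genes described, the genotype difference under SB505124 differed from that under TGFβ by limma's test of the difference itself, which shares its SB505124 libraries with the comparison reported. The same test called 352 of all 12498 tested genes (2.82%). Some of the 33, such as Fat2, Gpr56 and Bmp8a, were named because they passed it, so their number is not compared with that share. Values below are the log2 difference of KO minus WT under SB505124 less that under TGFβ, and each passed an adjusted p of 0.05.

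Among TGFβ targets and EMT genes, the value was 3.39 for Snai1, -0.68 for Klf10, -1.07 for Spsb1, -0.72 for Tgfbr1, -1.19 for Acvr1b, -0.91 for Id2 and -0.72 for Hmga2. Tgfbr1 was higher in KO under TGFβ and not called under SB505124. Among adhesion and matrix genes it was 2.11 for Nedd9, -0.9 for Itga5, -0.57 for Itga3, -0.55 for Mmp14, -0.49 for Cdh2 and -2.49 for Fat2. For the epithelial factors Ehf, Klf4 and Dlx3 it was 0.74, -1.1 and -1.9.

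Among growth factor and immediate early genes it was -0.84 for Jun, -1.4 for Fosb, -1.13 for Dusp5, -1.72 for Mst1r, -0.59 for Areg, -0.68 for Wnt7a, -0.6 for Jag1, -2.24 for Bmp8a, -1.04 for Vegfa and -0.63 for Ccl20. The stress genes Trib3 and Chac1 had -1.28 and -1.16, and the neighbouring imprinted genes Peg3 and Usp29 -0.93 and -1.46. Gpr56, Angptl4 and Gde1 had 1.46, 1.76 and -2.8.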

How the results depend on the processing

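The count of 7117 genes called under SB505124 stayed within 1.5 times under every alternative run. With all 8 libraries or those under SB505124 alone it went from 6148 (genes outside chromosomes 4 and 14 alone) to 7541 (genes with a mean of at least 1), and was 7233 with edgeR and 6735 with DESeq2. Without 1 library it ranged from 5714 to 7477 (2927 to 3848 higher, 2787 to 3631 lower), and under TGFβ from 6421 to 7938. In these fits the lone sample of a group is assumed to vary like the others. Scaling on genes outside chromosomes 4 and 14 gave 3269 higher and 3883 lower and moved the median of all genes from 0.01 to -0.04. Less stable was the count of 352 genes whose difference depended on treatment. It was 47 without the variance trend (16 higher, 31 lower), and DESeq2 called 107 of its genes higher, against 71. Without 1 library it ranged from 141 to 1027 (35 to 336 higher, 106 to 691 lower), with 141 and 168 without WT SB505124 replicates 1 and 2, 150 without KO TGFβ replicate 1 and 1027 without WT TGFβ replicate 1. The cause was not tested. Whether replicate numbers pair the samples was not settled. Deviations of same-numbered samples correlated at 0.198 between the WT groups and 0.102 between the KO groups. Between groups of different genotype they correlated at -0.199 to -0.025. With the number as a replicate block, 7103 genes were called under SB505124, 7835 under TGFβ and 252 for the difference. That block fits 1 shared effect of the number, so it does not cover pairing within a genotype. Of 181 named genes called, 7 lost a call in at least 1 alternative (Angptl4, Bmp4, Jag1, Krt14, Krt19, Pkp2 and Tgfb3) and none changed direction. Of 1596 list counts under the alternatives, 1526 stayed within 1.5 times. Whether the spread between the 2 libraries of a group or the depth limits the calls was not tested.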
